A study of Mus musculus with 8 samples.

Results

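The 10 genes described here encode parts of the retinal ribbon synapse: Ctbp2, Bsn, Pclo, Cacna1f, Cacna2d4, Slc17a7, Syp, Snap25, Cplx3 and Cplx4. They were picked by symbol from what is known of this synapse, though with earlier results of these data known, and all 10 were found among 32517 gene symbols and passed the filter on low counts, which left 15373 genes tested. RNA was sequenced from whole eyes of male mice aged 12 weeks, housed under a light phase of 12 h and a dark phase of 12 h. WT mice were Cre-negative; the mice labelled cNr3c1, called cKO here, were Cre-positive and lack Nr3c1, the glucocorticoid receptor gene, in the retina only. No source used here gives the Cre driver or says whether WT mice carry floxed alleles. Zeitgeber time (ZT) counts hours from lights-on; eyes were collected at ZT3, ZT9, ZT15 or ZT21, and RNA of 3 mice was pooled for each genotype and time. This gave 8 libraries, 4 per genotype, with no second pool at any genotype and time.

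Photoreceptors and bipolar cells release glutamate continuously, and their release rate follows graded changes in membrane voltage. The ribbon is a protein sheet that holds vesicles close to the release site, next to L-type calcium channels that open and close with light. Vesicles are filled with glutamate by a transporter and fuse through SNARE proteins. They are held in check or made ready by complexins, which are Cplx3 and Cplx4 at retinal ribbon synapses.

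Of these genes, 7 had at least 1 window in the RefSeq promoter table (GRCm38.p6), which holds 250 bases before and 50 after a gene's start. The windows of 4 genes are shown as examples, each with letters of a motif that bears on retinal, clock or general promoters. Windows that are not shown hold such letters too: Pclo has 4 GC boxes and Cacna1f has 1. The Ctbp2 window (chr7:133015198-133015497, minus strand) spans the start, at base 133015248, of transcript Ctbp2-214, which codes for 988 residues. That is the long product known as RIBEYE, the main protein of the ribbon, whereas transcript Ctbp2-201 starts at base 133123367 and codes for the 445 residues of the corepressor CtBP2. The other windows are Slc17a7 (chr7:45163671-45163970, plus strand), Syp (chrX:7638330-7638629, plus strand) and Cplx3 (chr9:57606232-57606531, minus strand). Capitals mark TAATCC, a core of sites for CRX and OTX factors, in Ctbp2 and Syp, where it reads GGATTA on the strand shown. They mark the GC box GGGCGG, or CCGCCC on the other strand, in Slc17a7, and the E-box CACGTG in Cplx3. Only a single motif is marked in each window, so the GC boxes of Syp, at -67 and -49, are unmarked.
Ctbp2: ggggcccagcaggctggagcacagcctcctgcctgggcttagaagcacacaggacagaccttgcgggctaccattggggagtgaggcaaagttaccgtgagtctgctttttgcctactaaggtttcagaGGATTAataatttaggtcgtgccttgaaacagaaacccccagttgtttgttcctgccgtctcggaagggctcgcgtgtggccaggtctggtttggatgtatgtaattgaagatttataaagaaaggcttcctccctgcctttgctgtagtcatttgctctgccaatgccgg
Slc17a7: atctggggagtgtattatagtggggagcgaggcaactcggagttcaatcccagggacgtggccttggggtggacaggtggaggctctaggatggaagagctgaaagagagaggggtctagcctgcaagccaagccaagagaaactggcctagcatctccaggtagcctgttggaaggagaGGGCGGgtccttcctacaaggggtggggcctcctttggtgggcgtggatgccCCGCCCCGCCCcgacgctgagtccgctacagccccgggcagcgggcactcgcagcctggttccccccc
Syp: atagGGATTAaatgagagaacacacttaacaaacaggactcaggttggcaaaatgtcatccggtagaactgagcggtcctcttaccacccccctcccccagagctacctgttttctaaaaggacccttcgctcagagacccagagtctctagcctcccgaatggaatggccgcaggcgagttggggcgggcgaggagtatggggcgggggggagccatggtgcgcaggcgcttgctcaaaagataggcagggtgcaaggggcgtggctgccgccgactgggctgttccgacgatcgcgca
Cplx3: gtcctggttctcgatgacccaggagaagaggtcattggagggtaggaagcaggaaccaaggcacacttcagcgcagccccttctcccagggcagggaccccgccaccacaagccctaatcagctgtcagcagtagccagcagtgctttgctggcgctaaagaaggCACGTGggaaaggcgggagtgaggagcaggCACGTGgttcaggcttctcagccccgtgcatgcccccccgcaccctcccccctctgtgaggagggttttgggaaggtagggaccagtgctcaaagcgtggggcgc

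Both strands were searched for each motif in the 8 windows of these genes and in all 32851 windows of the table. TAATCC was in 2 of the 8 windows and in 7.06% of all windows, at -121 from the start in Ctbp2 and at -246 in Syp. CACGTG was in 1 of the 8, and in 7.15% of all windows; Cplx3 has it at -85 and at -55. The GC box was in 4 of the 8 and in 35.7% of all windows, with 3 matches in Slc17a7, of which 2 overlap. The full glucocorticoid receptor site, AGAACA and TGTTCT with 3 bases between them, was in 0 of the 8 and in 0.00913% of all windows. AGAACA alone was in 2 of the 8 and in 19% of all. Those 2 are the Syp window and a second Ctbp2 window that is not shown (chr7:133081811-133082110). The partial REST site TTCAGCACC was in 0 of the 8 and in 0.371% of all windows. These are matches of letters, not measured binding.

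Total counts ran from 11748995 to 20309611 per library, and the 10 genes took 0.406 to 0.470% of them in WT and 0.408 to 0.479% in cKO. Levels are given in CPM, counts per 1000000 counts of the library, whose size was adjusted by the TMM method. Nr3c1 was at 120.9 ± 29.5 CPM in WT and 35.6 ± 2.37 in cKO (SD, n = 4 each), and each cKO library lay below each WT library. The fitted difference was -1.73 ± 0.18 (log2, SE; adjusted p = 0.157 in edgeR and 7.39e-13 in DESeq2). The labels give a retina-specific deletion, and the libraries hold the whole eye. Rod markers took 6.68 to 8.04% of counts in WT and 6.74 to 7.51% in cKO. The labels' tissue field names the ciliary body and its nonpigmented epithelium, against the protocols' whole eyes; 11 listed markers of that epithelium summed to 0.110 to 0.157% in WT and 0.118 to 0.143% in cKO. Lens genes took 14.8 to 18.3% in WT and 19.9 to 24.1% in cKO. In such bulk samples, fewer cells of a type and less RNA per cell cannot be told apart.

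Levels were compared between genes per kb of exon. Slc17a7, the vesicular glutamate transporter VGLUT1, had the highest mean over the 8 libraries, 609.3 CPM per kb. Syp, an abundant vesicle membrane protein, followed at 321.9 CPM per kb, then Snap25, a SNARE protein of the plasma membrane, at 216.4. Cplx4 and Cplx3, the complexins of ribbon synapses, were at 173.3 and 56.1 CPM per kb. Ctbp2 was at 43.5 CPM per kb, and the channel subunits Cacna2d4 and Cacna1f at 35.1 and 20.9. The giant scaffold genes Pclo and Bsn were lowest, at 7.98 and 3.98 CPM per kb. By these means, vesicle and release genes stood above ribbon, channel and scaffold genes.

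**Figure D1:**
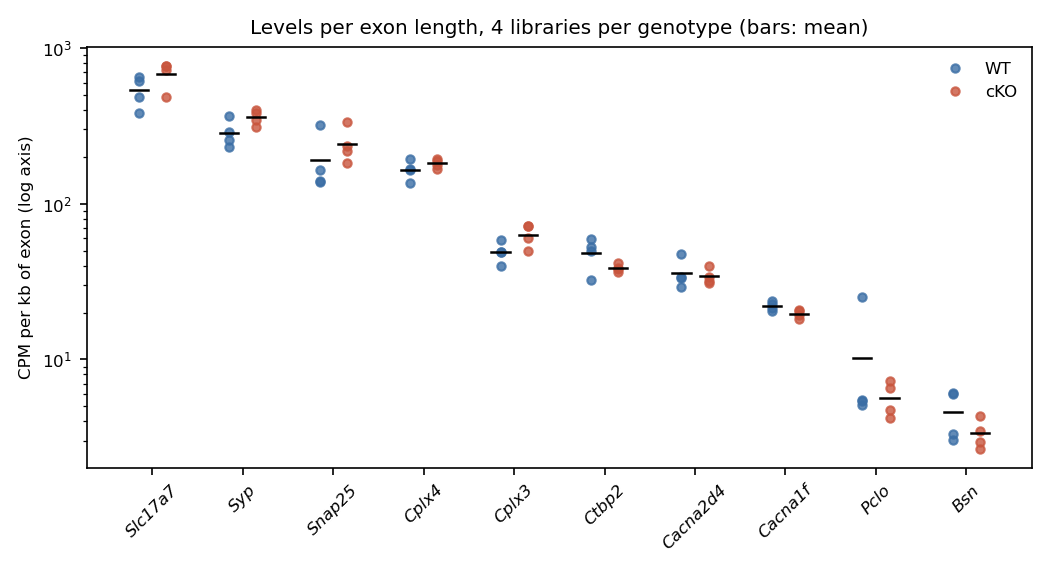
Level of each gene in CPM per kb of exon, on a log axis; points are the 4 libraries of each genotype and bars their means. Slc17a7 is the highest, at a mean of 609.3, and Bsn the lowest, at 3.98.

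Not all neighbours in this order were separated. Slc17a7 lay above Syp in 8 of 8 libraries, and Cplx4 above Cplx3 and Cacna2d4 above Cacna1f in 8 of 8 with ranges that did not overlap. Cplx3 lay above Ctbp2 in only 5 of 8 libraries, and those genes change places if the longest transcript is used in place of all exons. Syp against Snap25, Snap25 against Cplx4 and Ctbp2 against Cacna2d4 held in 6 of 8, and Cacna1f against Pclo and Pclo against Bsn in 7 of 8.

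In the genotype comparison, no member passed the test, and neither did any of the 15373 genes: edgeR's quasi-likelihood test with Benjamini-Hochberg adjustment called 0 of the 10 members and 0% of all genes. At an unadjusted p under 0.05, 4 members had higher values in cKO, Slc17a7, Syp, Snap25 and Cplx3, against 21.5% of all genes in either direction, 10.5% higher and 11% lower. These 4 vesicle and release genes were above WT at 4 of 4 times, as were 15.7% of all genes. Ctbp2, the scaffold genes and both channel genes had fitted differences below 0, that is 5 of 10 members against 54.4% of all genes. Of these, Pclo turned above 0 without the ZT9 pair of libraries and Cacna2d4 without the ZT3 pair. With time as a factor, a library without its partner of the same time does not enter the genotype comparison. Leaving out WT, cKO or both libraries of a time is therefore nearly the same comparison. DESeq2 called 0 members and 3.22% of all genes. The median difference was 0.05 (log2) over the members and -0.03 over all genes. No member had all cKO libraries outside the WT range, against 3.73% of genes above it and 3.16% below.

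**Figure D2:**
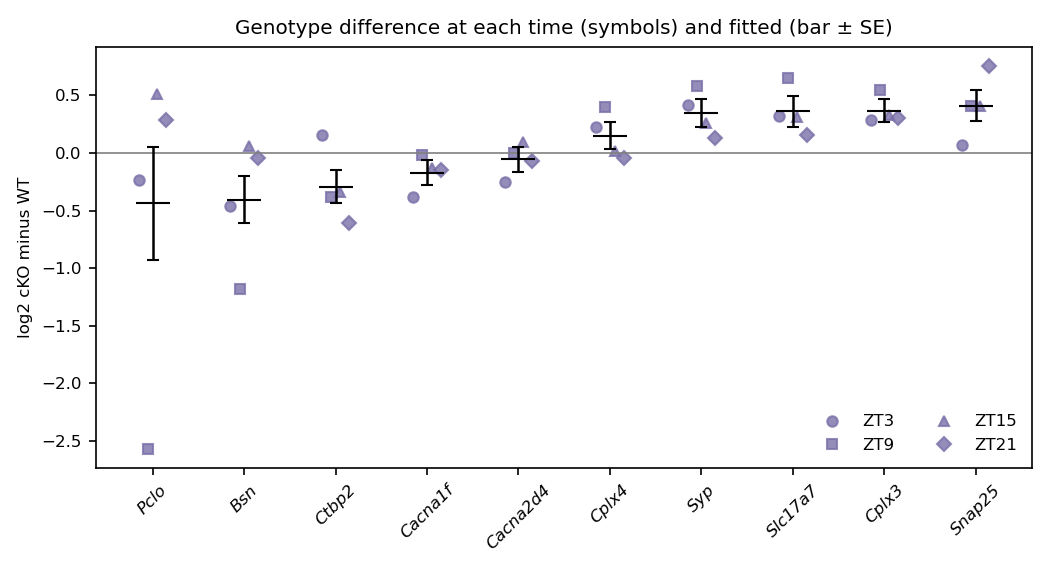
Difference of cKO from WT (log2) for each gene; symbols are the 4 times and the bar with its whiskers is the fitted difference ± SE. Slc17a7, Syp, Snap25 and Cplx3 lie above 0 at 4 of 4 times, and Cacna1f below 0 at 4 of 4.

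Among the ribbon and scaffold genes, Ctbp2 was at 174, 264, 279.6 and 315 CPM in WT at ZT3, ZT9, ZT15 and ZT21. In cKO it was at 194, 203, 221 and 207 CPM. WT spanned a wider range than cKO, which was above WT at ZT3 and below it at the other 3 times. The fitted difference was -0.29 ± 0.14 (log2, SE; edgeR adjusted p = 0.275). Counts per gene symbol cannot separate the RIBEYE transcript from the CtBP2 transcripts, and 314 exon bases of Ctbp2 are shared with Fgfr2 on the same strand.

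Bsn encodes bassoon, which anchors the ribbon to the active zone. It was at 95.5, 96.6, 53.0 and 48.2 CPM in WT and at 69.5, 42.6, 55.3 and 46.8 in cKO. Only WT at ZT3 and ZT9 stood above all cKO libraries. The fitted difference was -0.40 ± 0.21 (edgeR adjusted p = 0.295). It was -0.15 without WT ZT9 or without cKO ZT9, which is nearly the same comparison. Pclo encodes piccolo, a scaffold related to bassoon. It was at 122, 554, 113 and 119 CPM in WT and at 104, 93.5, 160.5 and 145 in cKO. The WT library of ZT9 was 3.45 times as high as the next highest library, and the other 7 overlapped between genotypes. The fitted difference of Pclo was -0.44 ± 0.49 (edgeR adjusted p = 0.622), and without WT ZT9 it was 0.19.

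That library also differed for other long genes. Genes with over 10 kb of exon (523 genes) had a median of 0.78 (log2) in WT ZT9 above the other WT libraries, against 0.13 at 5 to 10 kb, -0.02 at 2 to 5 kb and -0.05 under 2 kb. Pclo, with 22.1 kb of exon, stood at 2.23 and Bsn, with 15.9 kb, at 0.63. Over all genes the median genotype difference also fell with exon length. It was 0.08 (log2) under 2 kb, -0.02 at 2 to 5 kb, -0.11 at 5 to 10 kb and -0.30 over 10 kb. After each library was corrected for its dependence on exon length and GC, the genotype difference was -0.02 for Pclo and -0.17 for Bsn. A value at least 2 times that of each other library was seen in WT ZT9 for 1 member, Pclo, and for 2.38% of all genes. The part of exon length in the Pclo value beyond this trend was not tested.

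Cacna1f encodes the pore of the photoreceptor L-type calcium channel, Cav1.4. It was at 153, 132, 147 and 137 CPM in WT and at 118, 131, 134 and 124 in cKO. It was lower in cKO at 4 of 4 times, as were 15.1% of all genes, though the ranges overlapped, with a fitted difference of -0.17 ± 0.10 (edgeR adjusted p = 0.375). Cacna2d4 encodes its auxiliary subunit. It was at 276, 197, 168 and 194 CPM in WT and at 231, 196, 179.8 and 186 in cKO. Both genotypes were highest at ZT3, and the fitted genotype difference was -0.06 ± 0.11 (edgeR adjusted p = 0.770). On the X chromosome Cacna1f lies 3274 bases upstream of Syp on the same strand, and the difference was below 0 for Cacna1f and above 0 for Syp at each time.

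Slc17a7 was at 1151, 1453, 1836 and 1949.8 CPM in WT and at 1442, 2286, 2286 and 2169 in cKO. Both genotypes were lowest at ZT3, and the fitted difference was 0.36 ± 0.14 (edgeR adjusted p = 0.200). Syp was at 623, 687, 778 and 983 CPM in WT and at 832, 1029, 929 and 1075 in cKO. The fitted difference of Syp was 0.35 ± 0.12 (edgeR adjusted p = 0.190), with overlapping ranges. An antisense gene, Gm14703, shares 875 exon bases with Syp, and as no source used here gives the strand setting, its reads cannot be told apart from those of Syp.

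Snap25 was at 711, 368, 307 and 313 CPM in WT and at 744, 488, 409 and 527 in cKO. The ZT3 libraries of both genotypes stood above the other 6, and the fitted difference was 0.41 ± 0.14 (edgeR adjusted p = 0.176). Cplx3 was at 173, 144, 117 and 144 CPM in WT and at 212, 211, 147 and 177 in cKO. Its fitted difference was 0.37 ± 0.10 (edgeR adjusted p = 0.160; DESeq2 adjusted p = 0.0619). Cplx4 was at 300.2, 245, 301 and 350.1 CPM in WT and at 350.1, 324, 305 and 341 in cKO. The genotypes overlapped in Cplx4, with 0.15 ± 0.12 (edgeR adjusted p = 0.475).

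**Figure D3:**
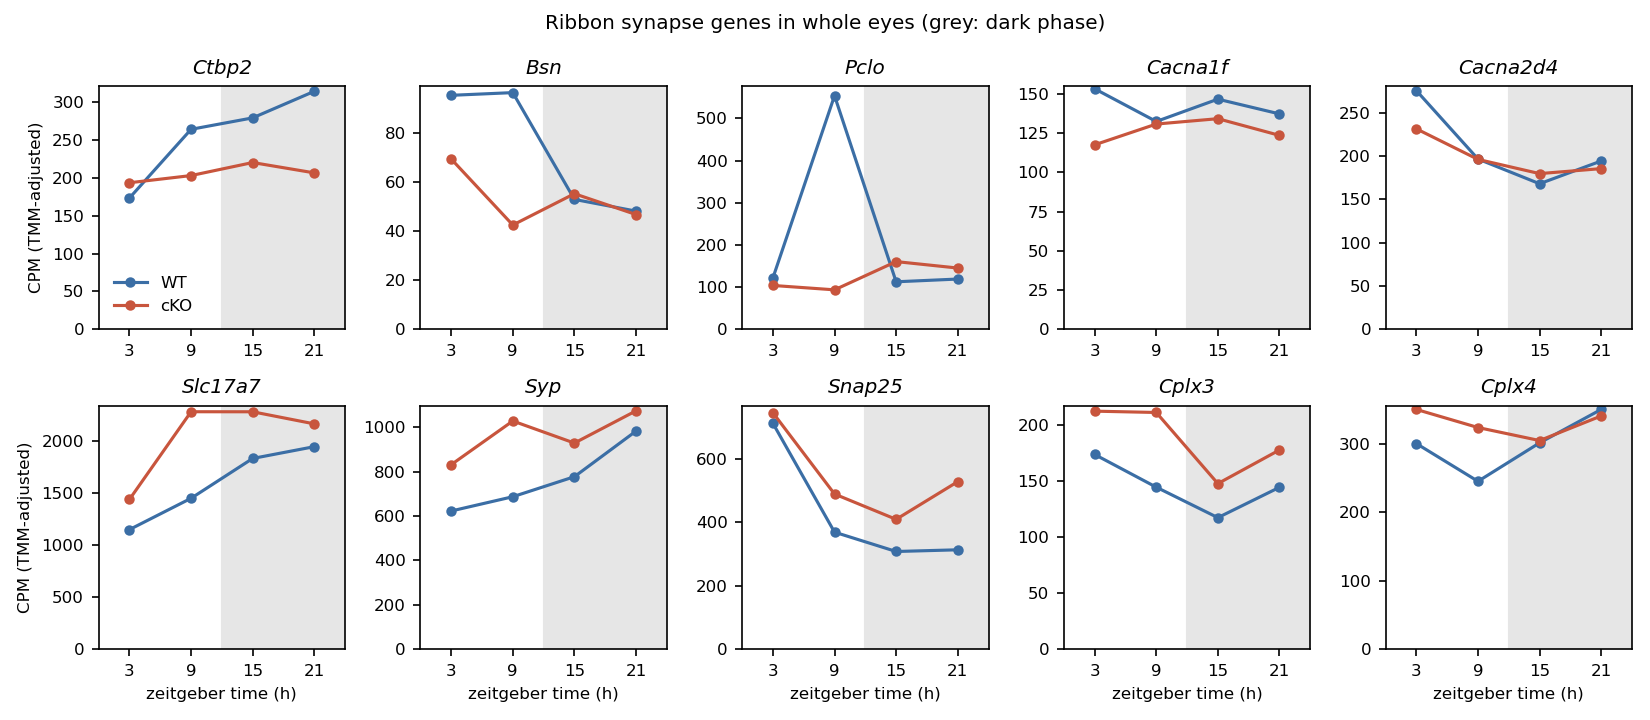
CPM of each gene against zeitgeber time in WT and cKO, with the dark phase in grey and 1 pooled library per point. Snap25 is highest at ZT3 in both genotypes (711 and 744), and Pclo has a single high point, 554, in WT at ZT9.

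Markers of some other cells and mitochondrial transcripts also differed with genotype, and their part in these differences was not tested. The percentages are of all counts, of which lens genes took more in cKO, while the differences are on the TMM-adjusted scale. Ganglion cell markers took 0.0686 to 0.0877% of counts in WT and 0.0887 to 0.0963% in cKO, with 16 of 16 differences above 0. Such cells also use Snap25 and Syp. Bipolar cell markers took 0.153 to 0.181% in WT and 0.136 to 0.157% in cKO, with 9 of 20 above 0. Their median difference was -0.04 (log2), against -0.03 over all genes. Their TMM-adjusted sums overlapped, at 1425 to 1753 CPM in WT and 1434 to 1585 in cKO. Müller glia markers took 0.409 to 0.745% in WT and 0.559 to 0.744% in cKO, with 14 of 16 above 0 and a median of 0.46 (log2). Mitochondrial transcripts took 1.09 to 5.49% in WT and 2.08 to 6.11% in cKO, with 13 of 13 differences above 0. Rod markers summed to 62266 to 74746 CPM in WT and 72119 to 84097 in cKO, higher in cKO at each time, with 15 of 24 differences above 0. When counts were scaled to the rod markers, the median of all genes was -0.19 (log2). On that scale the differences were -0.45 for Ctbp2, -0.56 for Bsn, -0.57 for Pclo, -0.33 for Cacna1f and -0.21 for Cacna2d4. They were 0.21 for Slc17a7, 0.19 for Syp, 0.25 for Snap25 and 0.21 for Cplx3, while Cplx4 turned to -0.01. The members at an unadjusted p under 0.05 were then Ctbp2 and Cacna1f, lower, and Slc17a7 and Syp, higher, against 21.9% of all genes. Snap25 (unadjusted p = 0.158 in edgeR) and Cplx3 (0.0632) were no longer among them, and 0 genes passed after adjustment. In a description added after the data were seen, each gene was set against the mean of the other 9: Snap25, Cplx3, Slc17a7 and Syp stood 0.35 to 0.42 above it, and Pclo and Bsn stood at -0.52 and -0.48. Members with a fitted difference above 0 have 1.82 to 2.99 kb of exon, and those below 0 have 5.34 to 22.1 kb. After the length and GC correction the differences were 0.32 for Slc17a7, 0.43 for Syp, 0.54 for Snap25, 0.37 for Cplx3 and 0.18 for Cplx4. They were -0.30 for Ctbp2, -0.12 for Cacna1f and -0.02 for Cacna2d4. The part of exon length in this split was not tested.

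By time of day, the vesicle and release genes did not move as one group. Snap25, Cplx3, Cacna2d4 and Bsn had higher values in the light (ZT3 and ZT9) and Slc17a7 in the dark (ZT15 and ZT21). These 5 had an unadjusted p under 0.05, against 27.4% of all genes, of which 14.2% were higher and 13.2% lower in the light. None of the 10 passed edgeR's adjusted test, nor did any gene (0% of all). DESeq2 called 2 members, Slc17a7 and Snap25, and 7.6% of all genes, with 4.22% higher and 3.38% lower in the light.

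Snap25 averaged 578 CPM in the light and 389 in the dark, a difference of 0.55 ± 0.14 (log2, SE; adjusted p = 0.0921 in edgeR and 0.0152 in DESeq2). Slc17a7 averaged 1583 in the light and 2060.3 in the dark, at -0.42 ± 0.14 (adjusted p = 0.123 in edgeR and 0.0391 in DESeq2). Without the ZT3 libraries, which leaves 1 light time, the differences were 0.14 for Snap25 and -0.19 for Slc17a7, and no member had an unadjusted p under 0.05. Cacna2d4 had all 4 light libraries above all 4 dark ones, as did 3.14% of all genes, with 0.29 ± 0.11. Cplx3 stood at 0.34 ± 0.10 and Bsn at 0.52 ± 0.21, or at 0.25 for Bsn without WT ZT9. Both ZT3 libraries were above the other 6 for Cacna2d4 and Snap25 (19.2% of all genes) and below them for Ctbp2 and Slc17a7 (20% of all genes).

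Mitochondrial transcripts differed at the same time: they took 5.49% of counts in WT at ZT3 and 1.09 to 1.35% at the other WT times. In cKO they took 6.11% at ZT3, 3.69% at ZT9, 2.08% at ZT15 and 3.63% at ZT21. Their part in the ZT3 values was not tested. With lens and mitochondrial genes left out of the library size, the same number of members, 5, had an unadjusted p under 0.05 for light against dark. The share of all genes was 27.3%, against 27.4% in the main fit.

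A wave with a period of 24 h common to both genotypes was fitted as a description of the 4 times. edgeR called 0 members after adjustment (0% of all genes), and 3 had an unadjusted p under 0.05, Cacna2d4, Snap25 and Cplx3, against 17.8% of all genes. DESeq2 called Snap25 (adjusted p = 0.0145) and 4.27% of all genes. The fitted peak-to-trough fold was 2.07 for Snap25, with a peak at ZT 3.19, 1.47 for Cplx3 at ZT 3.88 and 1.46 for Cacna2d4 at ZT 3.34. Slc17a7 had a fold of 1.61 with its peak near the opposite side of the day, at ZT 15.96. Cacna1f was nearly flat, at 1.04. The median fold was 1.47 over the members and 1.38 over all genes.

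**Figure D4:**
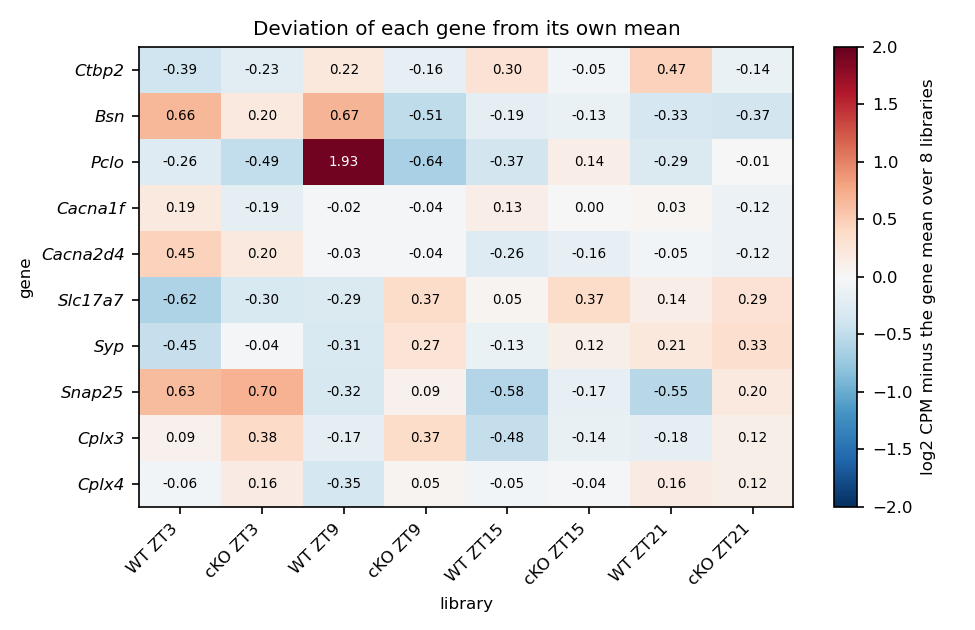
Deviation of each gene's log2 CPM from its own mean over the 8 libraries, with genes in rows and libraries in columns. Snap25 is high in both ZT3 libraries while Ctbp2 and Slc17a7 are low there, and Pclo is high in WT at ZT9.

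The members followed no single course over the 8 libraries. The correlation of log2 CPM between pairs ran from -0.93 for Ctbp2 with Snap25 to 0.89 for Slc17a7 with Syp; the libraries share time, genotype and depth, so these values describe the 8 libraries only. The correlation of single members with the mean of the standardized members ran from -0.53 for Ctbp2 to 0.80 for Cplx3.

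Whether the light and dark levels differed between genotypes was tested as an interaction. edgeR called 0 members after adjustment (0% of all genes), and Bsn and Pclo had an unadjusted p under 0.05, against 5.29% of all genes; both were lower in cKO, as were 4.71% of all genes. The light minus dark difference of Bsn was lower in cKO by a fitted -0.79 ± 0.33 (log2; edgeR adjusted p = 0.930). For Pclo it was -2.18 ± 0.81 (edgeR adjusted p = 0.899). Without WT ZT9 it was -0.70, and only this size is given, as that fit leaves 1 library in a group of genotype and phase. Both WT light libraries of Pclo were above both dark ones, and both cKO light libraries were below. DESeq2 called 0 members and 0.354% of all genes.

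Other synapse genes were described in 4 lists with 78 genes in all, and edgeR called none of them for genotype, wave or light against dark. For genotype, DESeq2 called 2 of 30 vesicle genes, 0 of 17 active zone, 1 of 14 calcium and 1 of 17 postsynaptic genes. It called 3.22% of all genes. Of 30 vesicle genes, 24 had a fitted genotype difference above 0, with a median of 0.20, against 45.6% above 0 over all genes. An unadjusted p under 0.05 was reached by 11 of the 30, all higher, against 10.5% of all genes higher. Cplx1, the complexin of conventional synapses, was at 36.0 ± 18.3 CPM in WT and 58.7 ± 13.0 in cKO (SD, n = 4 each). DESeq2 called it higher (adjusted p = 0.0325), while edgeR gave an adjusted p of 0.157. Rab3b, a vesicle GTPase, differed by 0.44 ± 0.12 (edgeR adjusted p = 0.157).

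Of 17 active zone genes, 11 had a difference below 0, with a median of -0.11, against 54.4% below 0 over all genes. An unadjusted p under 0.05 was reached by 3 of the 17, all lower, against 11% of all genes lower and 21.5% in either direction. These were Unc13a, a vesicle priming factor, at -0.36 ± 0.10 (log2, SE), Rimbp2, which links channels to RIM, at -0.48 ± 0.13, and Rims2, the RIM protein of ribbon synapses, at -0.38 ± 0.13. Their edgeR adjusted p-values were 0.160, 0.160 and 0.189. Of 14 calcium genes, 10 had a difference below 0, with a median of -0.11. Atp2b1, a calcium pump of the plasma membrane, was at 255 ± 21.0 CPM in WT and 183 ± 13.4 in cKO, and DESeq2 called it lower (adjusted p = 0.0325; edgeR 0.157). Elfn1, which binds the receptor of rod bipolar cells across the synapse, differed by -0.30 ± 0.11, and Rims3 by 0.66 ± 0.28.

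Of 17 postsynaptic genes, 10 had a difference below 0 and the median was -0.01. Gng13, a G protein subunit of ON bipolar cells, was at 31.7 ± 10.9 CPM in WT and 48.7 ± 7.41 in cKO, called higher by DESeq2 (adjusted p = 0.0222; edgeR 0.157). Gpr179 and Lrit3, which belong to the same signalling complex, differed by -0.26 ± 0.10 and -0.24 ± 0.10.

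**Figure D5:**
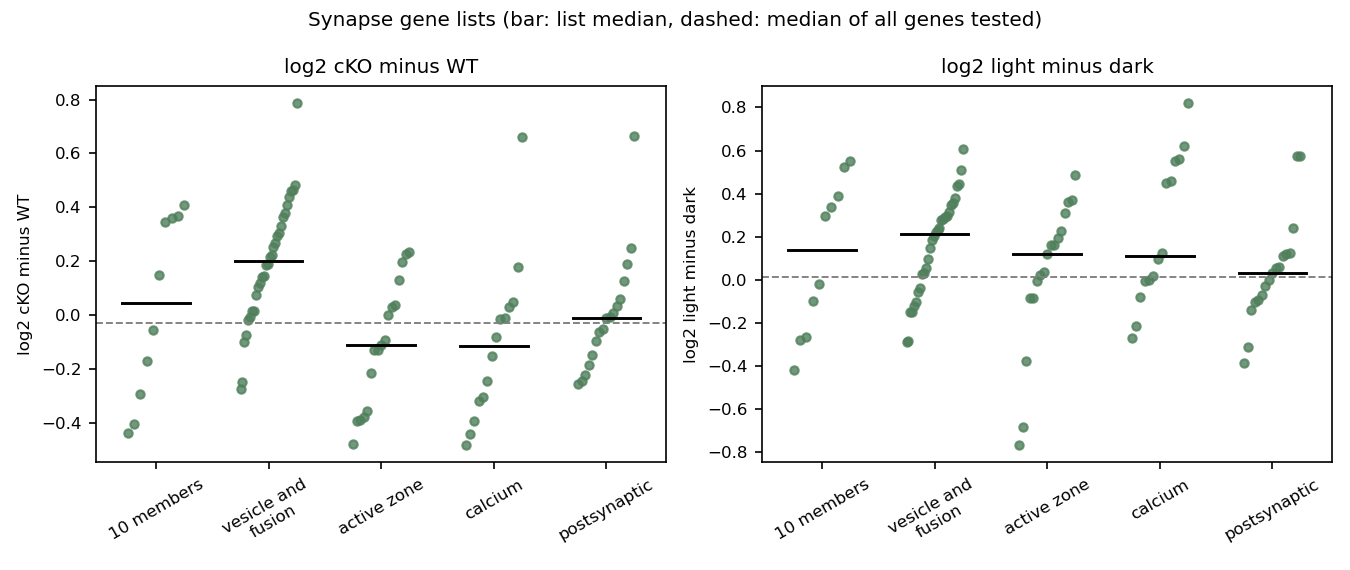
Fitted differences of the genes in each synapse list, with 1 point per gene, the list median as a bar and the median of all genes tested as a dashed line. The vesicle list has a genotype median of 0.20 (log2) and the active zone list -0.11, against -0.03 over all genes.

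For light against dark, DESeq2 called 2 of the 17 active zone genes and 1 each of the 14 calcium, 30 vesicle and 17 postsynaptic genes. It called 7.6% of all genes, and edgeR's adjusted test called none. DESeq2 called Tulp1, a photoreceptor protein that is needed at the synapse, lower in the light by a difference of -0.77 (adjusted p = 0.00129). Its mean was 1203 CPM in the light and 1909 in the dark. Sv2b, a vesicle protein, differed the other way, with 304 CPM in the light and 199 in the dark (log2 0.60, DESeq2 adjusted p = 0.00243). Cacnb2, the beta subunit of the photoreceptor channel, was at 133 CPM in the light and 96.4 in the dark (log2 0.45, DESeq2 adjusted p = 0.0177). Rgs9bp, which anchors RGS9 in photoreceptors, was at 399 and 258 CPM (log2 0.57, DESeq2 adjusted p = 0.00661). Kif3a, a kinesin subunit, was at 100.3 CPM in the light and 152 in the dark (log2 -0.69, DESeq2 adjusted p = 0.0221). For the wave DESeq2 called Rims2, Tulp1 and Sv2b, with folds of 1.96, 2.60 and 1.85 and peaks at ZT 12.5, 15.5 and 4.96. These were 2 of the 17 active zone and 1 of the 30 vesicle genes, against 4.27% of all genes. Among the other genes with the smallest p for the wave in their lists were Rims3, Grm6, Atp2b2, Slc17a6 and Ppfia1, with folds from 2.74 for Rims3 to 1.59 for Ppfia1.

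The genes most like the mean profile of the members, by Pearson r of log2 CPM over 8 libraries among 12139 candidates, were Egfl7 (0.99), Akain1 (0.97), Rras2 (0.96), Rasgrf1 (0.95) and Fsbp (0.93).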

How the data were processed

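The authors deposited a table of raw counts per gene symbol for 8 libraries, with no normalization; aligner, counter, genome build and strand: not given in the sources used here. Of 32544 rows, 27 whose symbol had become a date were left out (0.123 to 0.145% of counts). All sample columns were used. Counts were tested in R 4.3.3 with edgeR 4.0.16 (TMM; genes filtered with filterByExpr on genotype; quasi-likelihood F test; p adjusted by Benjamini-Hochberg; threshold 0.05). Genotype and light minus dark came from a fit with time as a factor (3 residual degrees of freedom), which pairs the genotypes by collection time. The wave and the interaction had 4. Alternatives were DESeq2 1.42.0, limma 3.58.1 (voom), other scalings, no filter, a length and GC correction, and libraries left out. SE is the log2 difference divided by the square root of F. Exon lengths are from GENCODE M21 (GRCm38), matched for 97.2% of genes. With 1 pool per genotype and time, no spread between like pools or between mice could be measured. The p-values of genotype and light minus dark rest on how far the genotype difference varied between times, mixed with variation between pools. These p-values and SE also rest on other genes, as the quasi-likelihood fit draws each gene's variance toward a trend over all genes. In the wave and interaction fits the remainder also holds time differences that the fit leaves out. The members and lists were chosen with earlier results of these data known. Named from each of the 4 synapse lists were the 3 genes with the smallest p for genotype and for the wave; genes that DESeq2 called were added after their values were seen. Some genes that these rules name are not reported here. For likeness, the 5 genes with the highest r at a mean of at least 5 CPM were named.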

Additional observations from a re-analysis of the deposited data

Results flagged for a closer look

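In 20 groups of 4 libraries (10 genes in each genotype), 3 had a library far from the other 3. Chance flags about 1 in 20 groups, but the share of all genes flagged in this way was not worked out. The same libraries differed for many genes: both ZT3 libraries were above the other 6 for 19.2% of all genes and below them for 20%. WT ZT9 was at least 2 times each other library for 2.38%. Pclo was at 554 CPM in WT at ZT9, against 113 to 122 in the other WT libraries. Slc17a7 was at 1442 CPM in cKO at ZT3, against 2169 to 2286 at the other times. Snap25 was at 711 CPM in WT at ZT3, against 307 to 368 at the other times. These 4 libraries of a group are 4 times of day, so a time effect and a library effect cannot be told apart. The light minus dark difference of Pclo went opposite ways in the genotypes, with a cKO minus WT difference of -2.18 (log2; edgeR adjusted p = 0.899), which did not pass the test. Without WT ZT9 alone it was -0.70.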

How the results depend on the processing

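Over 18 alternatives, no member passed the adjusted test for genotype (0 of 180 results; smallest adjusted p 0.0619). The differences of Slc17a7, Syp, Snap25 and Cplx3 were above 0 in 72 of 72 results, and those of Ctbp2, Bsn and Cacna1f below 0 in 54 of 54. These counts overstate the number of separate checks, as leaving out WT, cKO or both libraries of a time is nearly the same genotype comparison. The number of members at an unadjusted p under 0.05 for genotype was 4 in the main analysis (21.5% of all genes). It was 2 to 3 with single libraries left out (12.52 to 24.98%). Among these members were Ctbp2, lower, without WT ZT3 or cKO ZT3, and Bsn, lower, without WT ZT15 or cKO ZT15. The number was 2 without both ZT9 libraries (12.53%). It was 0 with no replicate block, that is with the time factor left out (12.39%). Cplx4 turned to -0.0058 when scaled to rod markers. Without both ZT3 libraries Cacna2d4 turned to 0.023, and with single libraries left out it ran from -0.10 to 0.023, turning without WT ZT3 or without cKO ZT3. Pclo turned to 0.19 without both ZT9 libraries and ran from -0.79 to 0.19, turning without WT ZT9 or without cKO ZT9, and Bsn ran from -0.56 to -0.15. For the wave, DESeq2 called 1 member and 4.27% of all genes. The fit without both ZT9 libraries called 3 members, Bsn, Slc17a7 and Snap25, and 1543 of 15423 genes. At an unadjusted p the number was 6 without both ZT9 libraries (35.99% of genes) and 0 without both ZT3 libraries (2.65%). With single libraries left out it was 1 to 5 (5.65 to 24.03%), against 17.8% of genes in the main fit. For light minus dark, DESeq2 called 2 members and 7.6% of all genes. The fit without both ZT9 libraries called 5 members, Bsn, Cacna2d4, Slc17a7, Snap25 and Cplx3, and 4772 of 15423 genes. Single libraries left out gave 0 to 3, the 3 being Bsn, Pclo and Slc17a7 without cKO ZT9, where 1173 of 15573 genes passed. At an unadjusted p they gave 1 to 7 (12.3 to 30.6% of genes), with 0 without both ZT3 libraries (4.09%). Without both ZT9 libraries Pclo turned to -0.23 and Cplx4 to 0.00354; Cacna1f turned to 0.057 when scaled to rod markers. With single libraries left out, light minus dark of Pclo ran from -0.42 (without WT ZT9) to 0.96 and of Cacna1f from -0.10 to 0.050. For the interaction, limma-voom gave 1 member at an unadjusted p, against 4.83% of all genes. Each library left out leaves a single library in its group of genotype and phase, so only sizes follow. The interaction then ran from -2.85 (without WT ZT3) to -0.70 (without WT ZT9) for Pclo, -1.19 (without cKO ZT3) to -0.48 (without cKO ZT9) for Bsn, -0.16 to 0.081 for Cacna1f, -0.38 to 0.15 for Cacna2d4, -0.046 to 0.27 for Cplx3, -0.086 to 0.58 for Slc17a7 and -0.80 to 0.18 for Snap25. The cause of these shifts was not tested. Over all alternatives, 21 of 640 results of members changed sign and 15 passed the threshold. Among the 15 were the 5 for light minus dark and 3 for the wave without both ZT9 libraries. The 3 for light minus dark without cKO ZT9 were also among them. In those fits 4772, 1543 and 1173 genes passed. The counts include interaction fits with a single library in a group. As no member passed the threshold in the main analysis, none could be lost. The lowest level of a member in any library was 42.6 CPM, and the number of pools, 1 per genotype and time, limits the precision. Replicate numbers carry no pairing beyond the collection time; the block is that time.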
